A study of Homo sapiens with 6 samples.

Results

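The desmosome genes were 9 of the 58825 genes in the deposited table, chosen by name, with earlier results of these data known: DSG2, DSC2, DSC3, DSP, JUP, PKP2, PKP3, PKP4 and PERP. Poly(A) RNA had been sequenced from HK-2 cells, an immortalized line of human kidney tubular epithelial cells, in 3 Control and 3 OX-LDL libraries. The Control cells were untreated, with no time given, and the OX-LDL cells had received 25 μg/ml oxidized low-density lipoprotein for 48 h. The paper's culture protocol starved the cells in low serum before treatment. It does not say whether the Control cells of these libraries were starved. The paper states in general that its cell experiments were repeated independently, but neither it nor the labels tie each library to a culture of its own, so p-values measure only the spread between these libraries. All results come from 1 immortalized line.

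Desmosomes are spot-like junctions that rivet neighboring epithelial cells together and anchor their intermediate filaments. Desmogleins and desmocollins, which are cadherins, bridge the gap between the cells. Their tails bind the armadillo proteins plakoglobin and plakophilin, and desmoplakin ties these to the keratin network. In kidney tubules, desmosomes contain the isoforms of simple epithelia rather than those of skin. Plakoglobin is also called γ-catenin and can join the E-cadherin complex of adherens junctions, an interaction that the study examined.

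Levels are given as FPKM, fragments per kilobase of transcript with the library size scaled out by the authors. Differences were tested on the estimated counts of the table with edgeR's quasi-likelihood test, and a gene was called where p, after Benjamini-Hochberg adjustment across the 19510 genes tested, was under 0.05. The SE is the standard error of the log2 fold change. Total counts were 62561347 to 76797607 per library, with about 4 counts per read pair. The first principal component, with 34.8% of the variance, separated Control from OX-LDL. On the second, with 17.7%, OX-LDL replicate 2 lay at one end. Of 13 markers of tubular epithelium, 7 had a mean of at least 0.1 FPKM, PAX8, KRT8 and KRT18 among them. The other 6, which mark mature proximal tubule (ANPEP, AQP1, CUBN, LRP2, HNF4A and SLC34A1), were below that level, and LRP2 had 0 counts in every library, which allows up to 12 counts, or 3 read pairs, per library.

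Of the 9 desmosome genes, all of which were tested, DSG2, PERP and PKP3 were higher in OX-LDL, and none was called lower. Across all genes tested, 15.3% were called, with 7.91% of all genes tested higher and 7.42% lower. The study's limits for differentially expressed genes were a fold change above 2 or below 0.5 with a p-value under 0.05. Its Methods mention adjusted p-values, but its Results do not say which kind was used. With unadjusted p-values from edgeR, none of the 9 passed these limits, where 6.36% of all genes did. The median log2 fold change of the 9 genes was 0.11, beside -0.0043 over all genes tested. The 9 genes together summed to 108.5 ± 2.74 FPKM in the Control libraries, against 125.7 ± 7.60 FPKM after OX-LDL (SD over 3 libraries each). Genes of high level dominate this sum. Mean DSG2 rose from 31.2 to 43.3 FPKM and PERP from 14.2 to 20.2 FPKM. Mean DSP was 28.9 and 29.95 FPKM, and PKP4 18.9 and 15.6 FPKM, so the larger sum does not describe all 9 genes. In FPKM, 3 of the 9 genes were higher and 1 was lower in all OX-LDL libraries than in any Control library, where 37.2% of all genes did not overlap (16.8% higher and 20.5% lower).

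**Figure D1:**
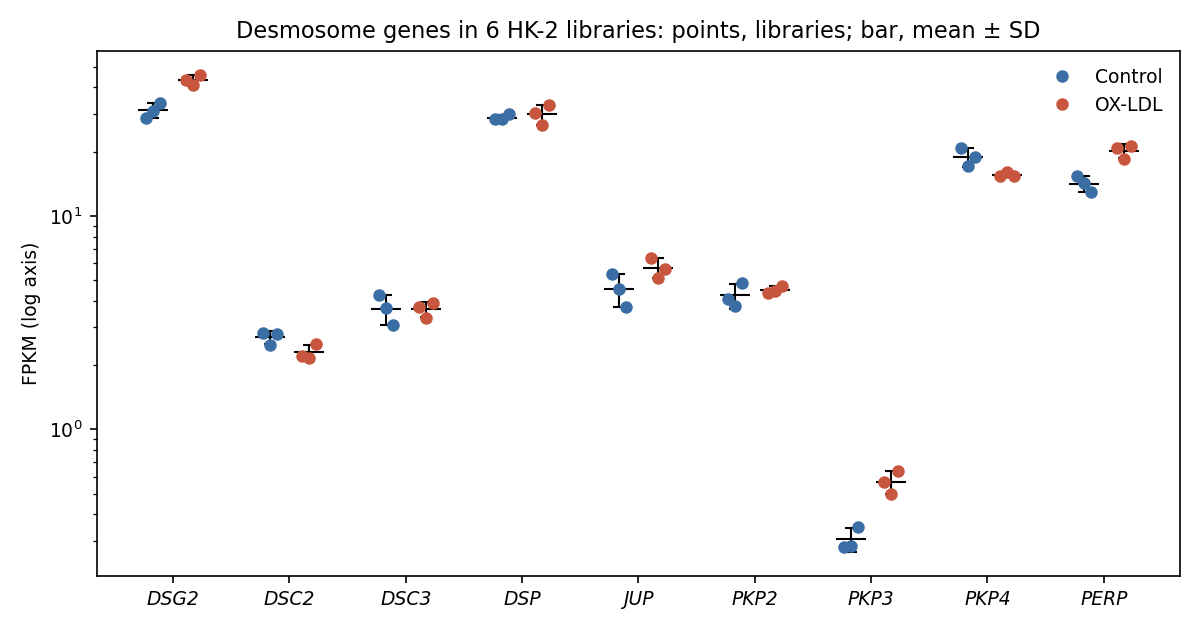
FPKM (log axis) of the 9 desmosome genes in each library. Points are libraries (blue, Control; red, OX-LDL), and bars are the mean ± SD of 3. The red points of DSG2, PERP and PKP3 lie above all blue points, and those of PKP4 lie below them.

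The start regions of the members were read from a collection of RefSeq promoters (GRCh38.p14). It held an entry for 7 of the 9 genes, and PKP2 and PKP3 were missing from the collection used here. The bases before the transcription start are shown for DSG2 and PERP, the called genes with an entry, and for DSC2, a cadherin gene of the same chromosome that was not called. Capitals mark the E-box CACCTG on either strand, which is bound by repressors of the SNAI and ZEB families. They also mark the AP-1 motif TGANTCA. Each sequence holds 250 bases and reads 5′ to 3′ on the strand of its gene. They lie at chr18:31497927-31498176 (DSG2, plus strand), chr18:31102422-31102671 (DSC2, minus strand) and chr6:138107420-138107669 (PERP, minus strand).
DSG2: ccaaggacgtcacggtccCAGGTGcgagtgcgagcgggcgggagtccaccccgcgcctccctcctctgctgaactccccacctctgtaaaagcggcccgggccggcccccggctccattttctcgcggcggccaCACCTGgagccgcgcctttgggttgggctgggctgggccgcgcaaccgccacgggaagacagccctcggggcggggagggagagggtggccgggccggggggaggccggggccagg
DSC2: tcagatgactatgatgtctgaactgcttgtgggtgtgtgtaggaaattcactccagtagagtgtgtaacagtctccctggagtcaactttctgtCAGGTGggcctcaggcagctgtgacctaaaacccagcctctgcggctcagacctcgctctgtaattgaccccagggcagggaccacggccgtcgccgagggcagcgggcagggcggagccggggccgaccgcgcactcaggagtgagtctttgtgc
PERP: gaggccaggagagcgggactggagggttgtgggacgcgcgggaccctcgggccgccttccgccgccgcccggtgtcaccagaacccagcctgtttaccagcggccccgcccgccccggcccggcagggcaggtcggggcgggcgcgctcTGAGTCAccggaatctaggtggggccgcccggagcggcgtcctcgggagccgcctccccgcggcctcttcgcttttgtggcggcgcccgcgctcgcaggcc
The motifs were chosen with the sequences in view, both strands were searched, and a match is a description of letters only. DSC2, JUP and PKP4 had 2 entries each, and only the entry nearest to the gene start of the deposited table was searched. The regions used for comparison include every entry of a gene. The E-box was found in 3 of the 7 start regions (DSG2, DSC2 and DSP), beside 17.5% of all 35116 regions of this length. DSG2, which was higher, and DSC2 and DSP, which were not called, thus shared it. The AP-1 motif was found in PERP alone of the 7, beside 6.57% of all regions. A GC box, GGGCGG, was found in 6 of 7 (42.6% of all regions), and CCAAT in DSC3, JUP and PKP4 (32.0%). No start region of the 7 held both of the motifs marked in capitals.

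DSG2, desmoglein 2, is the desmoglein of simple epithelia (ENSG00000046604; chromosome 18, 31498177 to 31549008 on GRCh38, plus strand). Its level was 28.8, 31.1 and 33.7 FPKM in Control replicates 1 to 3 and 43.1, 40.9 and 45.9 FPKM in OX-LDL replicates 1 to 3. The groups were well apart, with the lowest OX-LDL library above the highest Control library. DSG2 rose 1.42-fold, a log2 fold change of 0.50 (SE 0.08, 95% interval 0.31 to 0.70, adjusted p = 0.0111 by edgeR). With each library left out in turn, the log2 fold change was 0.46 to 0.56 and the adjusted p-value stayed at or below 0.0475. DSG2-AS1, a noncoding gene that overlaps DSG2 on the other strand, had at most 21 counts in any library, which is at most 0.109% of the DSG2 counts of that library.

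DSC2 and DSC3 encode desmocollins, the other cadherins of the junction, and lie next to each other on the minus strand of chromosome 18, DSC3 (ENSG00000134762) from 30989365 to 31042815 and DSC2 (ENSG00000134755) from 31058840 to 31102425. DSC2 had 2.84, 2.48 and 2.79 FPKM in the Control libraries, against 2.22, 2.17 and 2.50 FPKM after OX-LDL. The groups overlapped only by OX-LDL replicate 3 and Control replicate 2. The log2 fold change of DSC2 was -0.20 (95% interval -0.45 to 0.04, adjusted p = 0.237 by edgeR), so it was not called. DSC3 had 4.25, 3.70 and 3.08 FPKM in the Control libraries, against 3.73, 3.32 and 3.92 FPKM after OX-LDL. Its groups covered much of the same range, with a log2 fold change of 0.02 (95% interval -0.31 to 0.36) that changed sign under 4 alternatives. DSCAS, which overlaps DSC2 on the other strand, had 0 counts throughout.

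Because FPKM is per length, the 3 cadherins can be compared within a library. DSG2 made up 80.3%, 83.4% and 85.2% of their summed FPKM in Control and 87.9%, 88.2% and 87.7% in OX-LDL. All OX-LDL libraries were above all Control libraries, by 4.97 percentage points on average (two-sided exact permutation test, p = 0.1, the smallest that 3 against 3 libraries allow, and 0.2 after Benjamini-Hochberg adjustment over the 4 shares and ratios tested). The share of DSC2 was 6.65% to 7.90% in Control and 4.52% to 4.78% in OX-LDL. That of DSC3 was 7.78% to 11.8% in Control and 7.16% to 7.61% in OX-LDL.

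**Figure D2:**
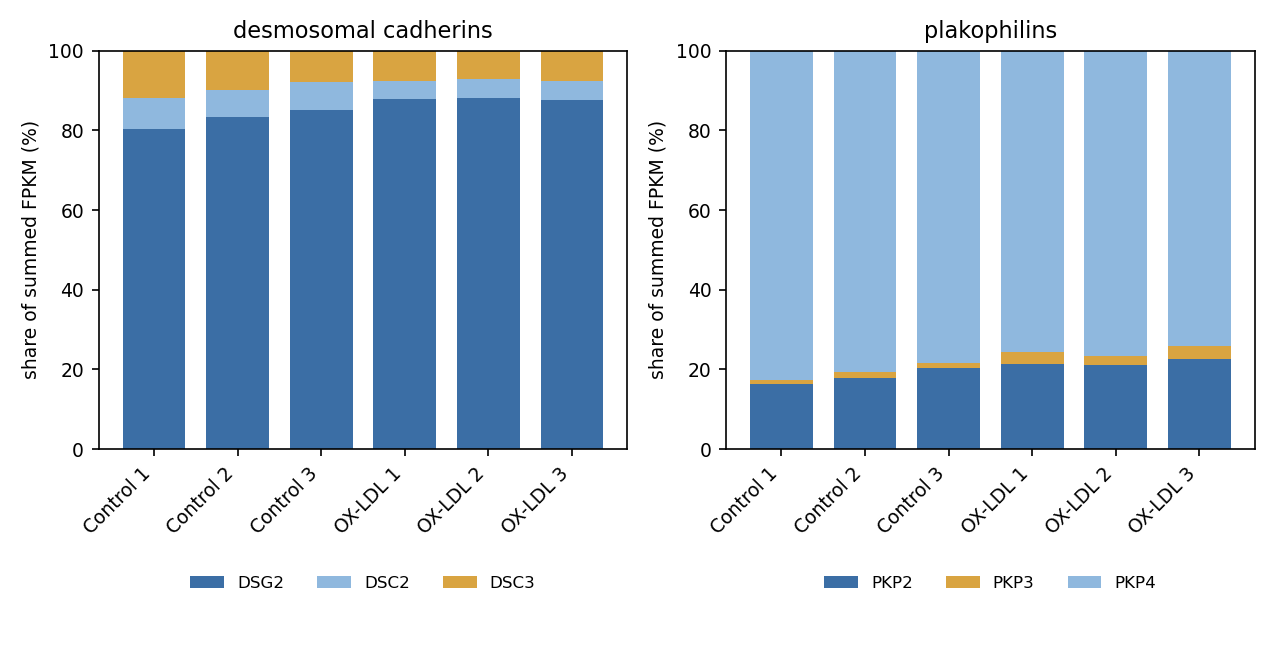
Share of summed FPKM (%) of each gene among DSG2, DSC2 and DSC3 (left) and among PKP2, PKP3 and PKP4 (right), 1 bar per library. DSG2 takes 80.3% to 85.2% of the left bars in Control and 87.7% to 88.2% in OX-LDL, and PKP4 takes the largest part of each right bar.

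The desmogleins DSG1, DSG3 and DSG4, the desmocollin DSC1 and the plakophilin PKP1, which are isoforms of skin and other stratified epithelia, were not detected. DSG1 and DSG3 had 0 counts in each library, and the highest count among the 5 genes was 11 (DSC1 in Control replicate 2), at or under the 12 counts taken as the limit of a library. None of them reached the minimum of 0.1 FPKM for the test. The keratins KRT1, KRT5 and KRT14 of stratified epithelium also had 0 counts in every library. The absence of the 5 desmosome genes does not extend to DSC3, which was detected in every library. DSC3 averaged 3.68 FPKM where DSC2 averaged 2.70 (Control libraries), and 3.66 beside 2.295 (OX-LDL libraries). Within each group, the ranges of DSC3 and DSC2 were separate. Which type of epithelium DSC3 stands for was not tested.

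DSP, desmoplakin, links the plaque to keratin filaments (ENSG00000096696; chromosome 6, 7541617 to 7586714, plus strand). It had 28.4, 28.3 and 29.9 FPKM in the Control libraries, against 30.3, 26.6 and 33.0 FPKM after OX-LDL. The Control libraries lay inside the wider range of the OX-LDL libraries. The log2 fold change of DSP was 0.09 (SE 0.09, 95% interval -0.13 to 0.30, adjusted p = 0.584 by edgeR). OX-LDL replicate 2 was the lowest library, and without it the log2 fold change of DSP was 0.16, while without OX-LDL replicate 3, the highest, it was 0.0075.

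JUP encodes plakoglobin, or γ-catenin (ENSG00000173801; chromosome 17, 41754604 to 41786931, minus strand). It had 5.36, 4.52 and 3.75 FPKM in the Control libraries, against 6.36, 5.14 and 5.63 FPKM after OX-LDL. Control replicate 1 was above OX-LDL replicate 2, so the groups overlapped. The log2 fold change of JUP was 0.36 (SE 0.15, 95% interval -0.01 to 0.73), with an unadjusted p-value of 0.0534 and an adjusted p-value of 0.171 by edgeR. DESeq2 gave an adjusted p-value of 0.116, and JUP was not called under any alternative. Without Control replicate 1 the log2 fold change was 0.51, and without Control replicate 3 it was 0.24.

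PKP2 and PKP3 encode plakophilins, which bind plakoglobin and desmoplakin in the plaque. PKP2 (ENSG00000057294; chromosome 12, 32790745 to 32896840, minus strand) is the plakophilin of simple epithelia and heart. It had 4.07, 3.79 and 4.86 FPKM in the Control libraries, against 4.33, 4.43 and 4.69 FPKM after OX-LDL. The OX-LDL libraries lay within the Control range, and the log2 fold change was 0.11 (95% interval -0.16 to 0.39, adjusted p = 0.567 by edgeR). It was 0.030 without Control replicate 2 and 0.22 without Control replicate 3.

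PKP3 (ENSG00000184363; chromosome 11, 392614 to 400260, plus strand) had the lowest level of the 9 genes, with 0.282, 0.284 and 0.350 FPKM in the Control libraries, against 0.568, 0.497 and 0.639 FPKM after OX-LDL. The underlying counts were 96, 99 and 110 in Control, against 162, 174 and 222 in OX-LDL, about 4 per read pair. The groups did not overlap, and PKP3 rose 1.89-fold, a log2 fold change of 0.92 (SE 0.23, 95% interval 0.38 to 1.45, adjusted p = 0.0383 by edgeR). The call of PKP3 depended on single libraries and settings. Its adjusted p-value was 0.0632 to 0.127 in the 5 fits that left out a library other than OX-LDL replicate 2, and 0.0551 to 0.0615 in limma on log2 FPKM with a pseudocount. Its log2 fold change was 0.82 to 1.02 with a library left out, and in limma 0.87, 0.72 and 0.26 with pseudocounts of 0.01, 0.1 and 1 FPKM.

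PKP4, also known as p0071, is a relative of p120-catenin that is found at desmosomes and at adherens junctions (ENSG00000144283; chromosome 2, 158456964 to 158681429, plus strand). It had 20.7, 17.03 and 18.8 FPKM in the Control libraries, against 15.3, 16.1 and 15.4 FPKM after OX-LDL. All OX-LDL libraries were below all Control libraries. Its log2 fold change was -0.24 (SE 0.09, 95% interval -0.46 to -0.02, unadjusted p = 0.0349), but with an adjusted p-value of 0.131 by edgeR PKP4 was not called, nor was it in DESeq2 (0.129). The noncoding gene AC005042, inside PKP4 on its own strand, had at most 1.34% of the PKP4 counts of a library, and reads could have been split between the genes in the counting by the authors.

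Among PKP2, PKP3 and PKP4, PKP2 made up 16.2%, 17.9% and 20.2% of the summed FPKM in Control and 21.4%, 21.1% and 22.7% in OX-LDL. The groups did not overlap and differed by 3.59 percentage points (two-sided exact permutation test, p = 0.1, adjusted p = 0.2 over the 4 shares and ratios). PKP4 made up 78.3% to 82.7% in Control and 74.2% to 76.6% in OX-LDL, and PKP3 1.12% to 1.46% and 2.37% to 3.09%. Neither PKP2 nor PKP4 was called.

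PERP is a tetraspan membrane protein of desmosomes and a target gene of p63 (ENSG00000112378; chromosome 6, 138088505 to 138107419, minus strand). It had 15.3, 14.2 and 12.9 FPKM in the Control libraries, against 20.7, 18.6 and 21.2 FPKM after OX-LDL. The groups were apart, and PERP rose 1.46-fold, a log2 fold change of 0.54 (SE 0.10, 95% interval 0.31 to 0.77, adjusted p = 0.0142 by edgeR). Its adjusted p-value was 0.0585 without Control replicate 2, 0.0527 without OX-LDL replicate 1 and 0.0582 without OX-LDL replicate 3, with log2 fold changes of 0.50 to 0.53 in these fits.

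**Figure D3:**
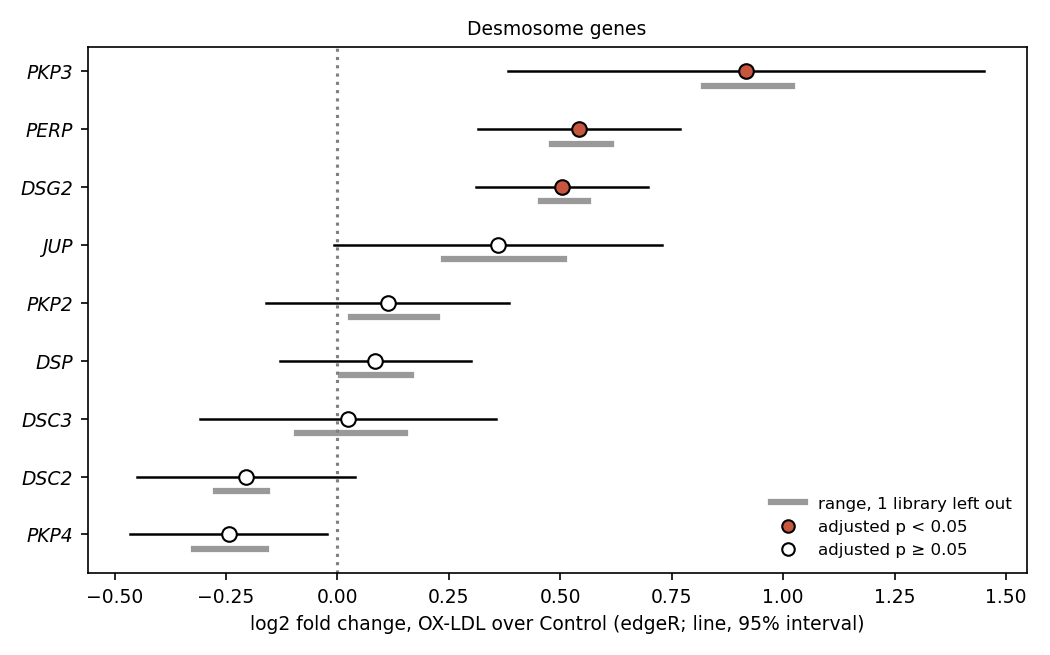
Log2 fold change (OX-LDL over Control) of the 9 desmosome genes from edgeR, with the 95% interval (black line) and the range over the 6 fits that left out 1 library (gray bar). Filled points have an adjusted p-value under 0.05. PKP3 (0.92), PERP (0.54) and DSG2 (0.50) are filled, and the intervals of DSP, DSC3, PKP2, DSC2 and JUP include 0.

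The levels in Control ranked DSG2 (31.2 ± 2.44 FPKM), DSP (28.9 ± 0.908), PKP4 (18.9 ± 1.85), PERP (14.2 ± 1.203), JUP (4.54 ± 0.806), PKP2 (4.24 ± 0.559), DSC3 (3.68 ± 0.585), DSC2 (2.70 ± 0.198) and PKP3 (0.305 ± 0.0384; SD, n = 3). The library ranges of DSG2 and DSP overlapped, as did those of JUP with PKP2 and of PKP2 with DSC3, so these neighbors in the order were not separated. In OX-LDL the order was the same except that PERP (20.2 ± 1.42 FPKM) lay above PKP4 (15.6 ± 0.438), and no neighbors had overlapping ranges. DSG2 was at the 95.5th percentile of mean FPKM among the genes tested, DSP at the 93.8th, JUP at the 66.8th and PKP3 at the 25.1st.

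The cadherins and armadillo proteins of adherens junctions were examined beside the desmosome genes, since γ-catenin is shared by these junctions. Of 8 such genes, 7 were tested, and CTNNB1 and CDH2 were called, each of them higher, where 15.3% of all genes tested were called and 7.91% called higher. CTNNB1, which encodes β-catenin, the nearest relative of plakoglobin, had 15.8, 15.4 and 14.9 FPKM in the Control libraries, against 22.3, 22.3 and 22.7 FPKM after OX-LDL. The groups were far apart relative to their spread, with a log2 fold change of 0.58 (SE 0.06, adjusted p = 0.00295 by edgeR) that was called under all alternatives. CDH2, N-cadherin, rose from 37.7 ± 0.188 to 45.1 ± 2.89 FPKM (SD over 3 libraries each; log2 fold change 0.29, adjusted p = 0.0367 by edgeR), and it was not called in any of the 6 fits that left out 1 library (adjusted p up to 0.115).

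CDH1, E-cadherin, was barely detected. It had 15, 66 and 73 counts in Control, against 61, 34 and 71 in OX-LDL, or 0.0276, 0.119 and 0.144 FPKM and 0.134, 0.0602 and 0.124 FPKM. These libraries covered the same range, with a log2 fold change of 0.17 and a 95% interval of -1.32 to 1.66, which includes both a rise and a fall. CDH3, P-cadherin, had 0.244 ± 0.112 FPKM in the Control libraries, against 0.331 ± 0.0933 FPKM after OX-LDL. The level of CTNNA1, α-catenin, was 41.2 ± 4.69 and 42.0 ± 1.93 FPKM, that of CTNND1, p120-catenin, 14.6 ± 2.38 and 11.7 ± 1.71 FPKM, and that of ARVCF 0.388 ± 0.0950 and 0.332 ± 0.144 FPKM (SD over 3 libraries each). None of these was called, and CTNND2 had 0 counts.

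The ratio of JUP to CTNNB1 in FPKM was 0.340, 0.294 and 0.252 in Control and 0.285, 0.230 and 0.248 in OX-LDL. The groups overlapped, with a difference of -0.21 on the log2 scale (two-sided exact permutation test, p = 0.2, adjusted p = 0.267). The difference was -0.10 without Control replicate 1, -0.14 without OX-LDL replicate 2 and -0.32 without Control replicate 3. The ratio of JUP to CDH1 was 26.1 to 194 in Control and 45.3 to 85.4 in OX-LDL (p = 1 in the same exact test). The Control range of the latter rests on the 15 counts of CDH1 in Control replicate 1. Without that library the log2 difference was 0.86 instead of -0.02.

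On the cytoplasmic side, desmosomes hold intermediate filaments, and of 12 keratins, filament genes and cytolinkers, 11 were tested. KRT8, KRT19, VIM, PLEC and DST were called, all higher, and the median log2 fold change of the 11 was 0.58. For all genes tested, 7.91% were called higher and the median log2 fold change was -0.0043. KRT8, a keratin of simple epithelia, had 37.9, 30.9 and 43.8 FPKM in the Control libraries, against 68.6, 59.7 and 67.9 FPKM after OX-LDL, for a log2 fold change of 0.83 (SE 0.14). PLEC, the cytolinker plectin, rose from 10.0 ± 0.941 to 17.8 ± 2.44 FPKM (SD over 3 libraries each; log2 fold change 0.86). KRT19 and VIM, vimentin, had the largest log2 fold changes of this list, 1.94 and 1.17. DST, dystonin, rose by 0.32 on the log2 scale (adjusted p = 0.0477 by edgeR), but it was called in only 1 of 6 fits without a library and in 4 of 10 other alternatives. The desmosomal cytolinkers PPL, periplakin, and EVPL, envoplakin, were not called, with log2 fold changes of -0.10 and 0.54. KRT18, the partner of KRT8, was higher in each OX-LDL library, with a log2 fold change of 0.59 and an adjusted p-value of 0.123 by edgeR. KRT8 and KRT18 overlap on opposite strands, and reads from the overlap cannot be told apart unless strand was used in the counting.

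**Figure D4:**
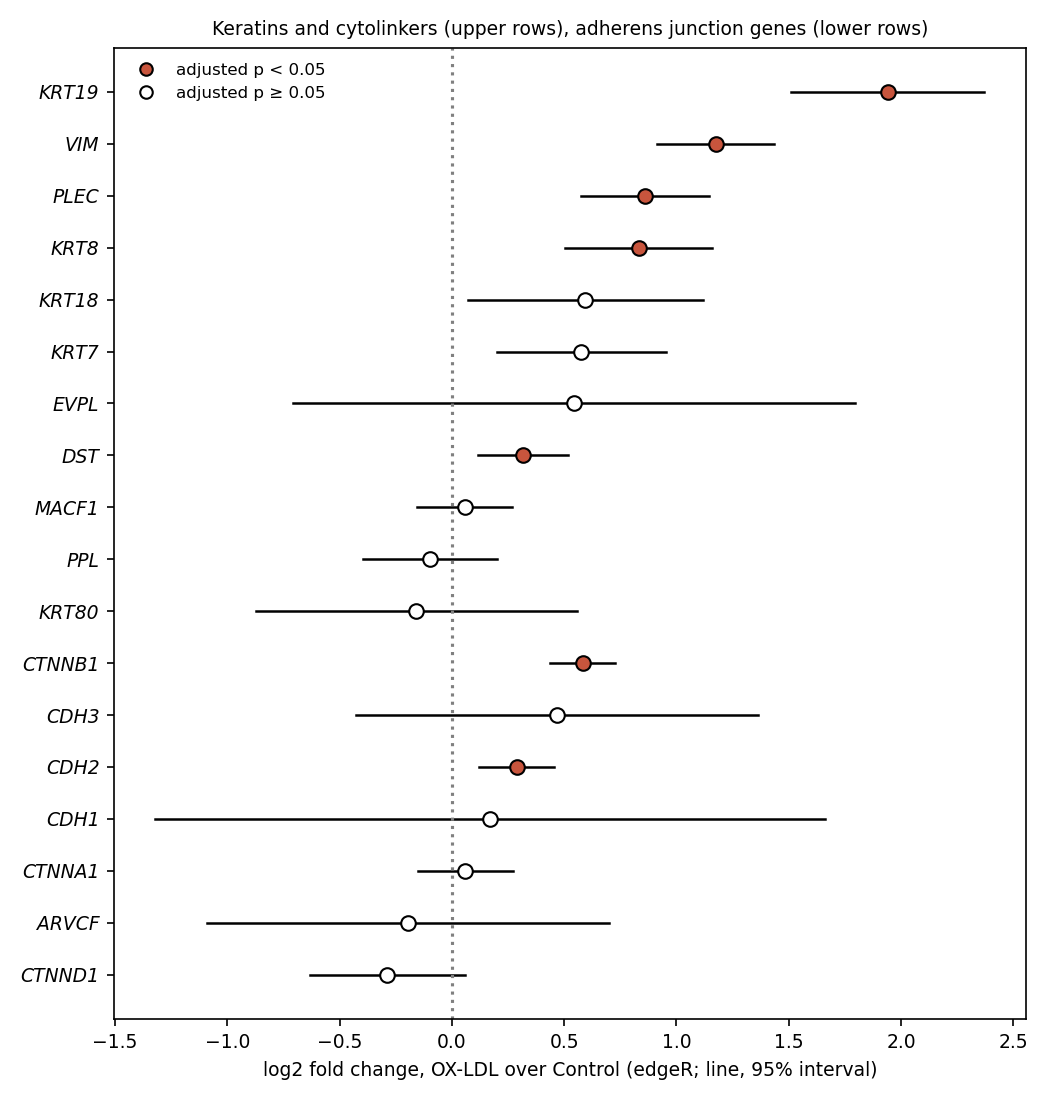
Log2 fold change (OX-LDL over Control, edgeR) with its 95% interval for the tested keratins, filament genes and cytolinkers (upper rows) and the tested adherens junction genes (lower rows). Filled points have an adjusted p-value under 0.05, 5 in the upper list and 2 in the lower, all above 0, and the interval of CDH1 runs from -1.32 to 1.66.

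Of 16 genes that regulate desmosomes or epithelial genes, 10 were tested and 2 were called, both lower. Among all genes tested, 15.3% were called and 7.42% were called lower. On only 10 genes, 2 is near the share called in either direction and above the share called lower. In FPKM, 7 of the 10 did not overlap between groups, higher or lower, where 37.2% of all genes tested did not. EGFR, a receptor kinase whose activity weakens desmosomes, fell from 74.3 ± 9.40 to 37.8 ± 2.51 FPKM (SD over 3 libraries each), with a log2 fold change of -0.94 (SE 0.11, adjusted p = 0.00402 by edgeR). GSK3B, a kinase that acts on the tail of desmoplakin, fell from 20.6 ± 0.708 to 15.8 ± 1.10 FPKM (log2 fold change -0.35, adjusted p = 0.0264 by edgeR), and was called in only 1 of the 6 fits without a library. On chromosome 18, none of the 6 genes beside the desmosomal cadherins was called, and 2 of them reached the level for the test.

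Markers of other cell types were summed in each library. Of 7 fibroblast markers, 2 had a mean of at least 0.1 FPKM (COL1A1 and LUM), with sums of 10.1 to 12.01 FPKM in the Control libraries, against 8.77 to 14.1 FPKM after OX-LDL, and DCN was at 0 counts. Of 7 markers of distal tubule and collecting duct, only GATA3 reached 0.1 FPKM, and UMOD, AQP2 and SCNN1G were at 0 counts. The sums were 0.463 to 0.748 FPKM in the Control libraries, against 0.158 to 0.365 FPKM after OX-LDL. Of 7 stratified squamous markers, only KRT10 reached 0.1 FPKM, with sums of 4.75 to 6.46 FPKM in the Control libraries, against 3.95 to 4.94 FPKM after OX-LDL. None of the 5 endothelial markers reached 0.1 FPKM (sums of at most 0.122 FPKM). The 5 leukocyte markers summed to 3.14 to 7.74 FPKM in the Control libraries, against 9.16 to 13.98 FPKM after OX-LDL, with CD68 and CD14 at or above 0.1 FPKM, while PTPRC, CD3E and LYZ were below 0.1 FPKM. Whether these differences had a part in the desmosome genes was not tested. In bulk RNA, fewer cells of a kind and less RNA per cell cannot be told apart.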

How the data were processed

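The 6 libraries were grouped by their titles, and the columns of the 1 deposited table were matched to them by name. The authors deposited FPKM, scaled per kilobase and for library size, with 0 counts listed at 0.0001. They also deposited estimated counts, which are whole numbers not scaled to a common library size. Counts of 4, 8 and 12 were 3.26, 2.95 and 2.13 times as frequent as their neighbors, so about 4 counts stand for a read pair. Intervals and limits cover counting or replicate error only. The submitters' processing notes name cutadapt 1.9, HISAT2 2.0.4, StringTie 1.3.4d and GRCh38, without roles. Whether counting used the strand, and the annotation release, are not given in the sources used here, so values of overlapping genes are uncertain. Within groups, pairs of libraries had a chi-square of 57.3 to 99.1 for each gene (genes with at least 40 counts in a pair), so none was deposited more than once.

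Genes averaging 0.1 FPKM or more were tested with edgeR 4.0.16 (R 4.3.3; TMM, glmQLFit, glmQLFTest, group as the only term), with Benjamini-Hochberg adjustment. The SE of a log2 fold change was obtained by dividing it by √F, and 95% intervals use the t quantile of the fit. Shares and ratios of FPKM were compared by two-sided exact permutation tests. Alternatives were DESeq2 1.42.0, limma 3.58.1 on log2(FPKM + 0.1, 1 or 0.01), other scaling, other minimum levels, counts divided by 4, a replicate block and leaving out each library. The members and gene lists were chosen with earlier results of these data known. Named were all 9 members, all measured genes of the adherens junction list and of the skin isoforms, and the called genes of the other lists. Names outside this rule, such as KRT18, PPL and EVPL, were added after their values were seen.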

Additional observations from a re-analysis of the deposited data

How the results depend on the processing

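DSG2 was called under all 10 alternatives and in all 6 fits that left out 1 library (log2 fold change 0.46 to 0.56). PERP was called under all 10 alternatives and in 3 of the 6 fits, and PKP3 under 4 of the 9 alternatives that tested it and in 1 of the 6 fits. The other 6 desmosome genes were called under none of these. DSC3 changed sign with library size only (-0.0046), limma on log2(FPKM + 1) (-0.00051), and with replicate 3 of Control (-0.090) or of OX-LDL (-0.033) left out, where the range was -0.090 to 0.15. The number of desmosome genes called, 3, was 1 to 3 with a library left out. With Control replicate 2 or replicate 1 or 3 of OX-LDL left out, DSG2 alone was called. The number past the study's limits with unadjusted p-values, 0, was 0 to 1, the 1 being PKP3 without Control replicate 3 or OX-LDL replicate 2. In these fits, in that order, the adjusted p-value of PKP3 was 0.0632 and 0.04555 by edgeR.

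Of the adherens junction list, 2 genes were called, and 1 was called without a minimum level, with the replicate block, and in every fit that left out a library (1 to 1). Of the regulators, 2 were called, 4 with DESeq2, 4 with a minimum mean of 1 FPKM, 1 with the replicate block and 1 to 3 with a library left out. The log2 difference in the ratio of JUP to CDH1, -0.02, was 0.23 with 0.1 added to each FPKM value and -0.59 to 0.86 with a library left out, being positive without replicate 1 of Control (0.86) and without replicate 1 (0.11) or 3 (0.14) of OX-LDL. The directions of the other 3 shares and ratios were the same under all their alternatives. The causes were not tested.

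The labels give replicate numbers, but libraries with the same number did not deviate together (correlations of -0.041, -0.0031 and 0.036), so the numbers were not taken as pairs. With the replicate block, 1636 genes were called, beside 2991 without it, and 2 of the 9 desmosome genes, DSG2 and PERP. Over all genes, DESeq2 called 4430, and leaving out 1 library gave 1161 to 2943. CDH1 (15 to 73 counts) and PKP3 (96 to 222 counts) rest on few read pairs.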

Other observations

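A wider set was read from the GO annotation in the authors' table, after the values of the desmosome genes had been seen. The term desmosome covered 24 genes, the 9 genes above among them. Of the 18 that could be tested, 6 were called higher and 1 lower by edgeR, 38.9% beside 15.3% of all genes tested, with a median log2 fold change of 0.10. The 6 were DSG2, PERP, PKP3, TCHP, B4GALT1 and UBA1. Because the 9 desmosome genes are among the 18, this share in part repeats the calls given above and is no separate result. TCHP encodes trichoplein, which binds keratin filaments, and had 1.48 ± 0.123 FPKM in the Control libraries, against 2.85 ± 0.672 FPKM after OX-LDL (SD over 3 libraries each; log2 fold change 0.97). B4GALT1, a galactosyltransferase, rose from 13.7 ± 0.697 to 19.9 ± 1.66 FPKM (log2 fold change 0.57), and UBA1, the enzyme that activates ubiquitin, from 41.4 ± 0.836 to 52.8 ± 3.91 FPKM (0.38). KAZN, which encodes kazrin, a protein that binds periplakin at desmosomes, was the gene called lower, from 6.15 ± 0.999 to 2.63 ± 0.219 FPKM, or by -1.19 on the log2 scale (SE 0.14, adjusted p = 0.00412 by edgeR). PNN, pinin, which is found at desmosomes and in the nucleus, had 43.1 ± 0.311 and 40.7 ± 0.995 FPKM and was not called.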
